A study of Homo sapiens with 12 samples.

Results

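RNA profiles of MV-4-11 cells given crenolanib alone were compared with those of cells given HPA-12 alone, each in 3 libraries, which are 6 of the 12 libraries in the series. MV-4-11 is an established human cell line of acute myeloid leukaemia with an activating FLT3 mutation and a KMT2A gene fusion; the labels give its genotype as WT and its source as bone marrow. Crenolanib inhibits the kinase FLT3. HPA-12, bought as the (1R,3S) isomer per the labels, inhibits CERT, the ceramide transfer protein. Both groups were treated for 48 h, without the other compound, in medium with fetal bovine serum, and the labels used here give no dose. The 3 DMSO libraries (the solvent, for which the labels used here give no time) are quoted as levels only. All libraries come from this line, the labels do not say whether those of a group came from separate cultures, and the p-values therefore measure the spread between libraries, which may be technical. Of 20036 genes in the table, 10636 had at least 1 FPKM (fragments per kilobase of gene, scaled to the size of the library) in 3 or more of the 6 libraries and were tested. At the edge of that rule, 621 genes reached 1 FPKM in exactly 3 of the 6 libraries and 306 genes that were left out reached it in 2. Levels are given per library or as mean ± SD (n = 3 libraries).

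FLT3 is a receptor tyrosine kinase of blood progenitors that signals through STAT5, the RAS-MAPK cascade and PI3K-AKT. Signals through these routes switch on immediate early genes within minutes, and feedback genes such as the DUSP phosphatases and SOCS proteins then damp the cascade. CERT carries ceramide from the endoplasmic reticulum, where it is made, to the Golgi, where it becomes sphingomyelin.

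The libraries of each group were alike, and the groups were apart. Across the genes tested, which are not independent replicates, libraries correlated at 0.984 to 0.985 within crenolanib, at 0.992 to 0.995 within HPA-12, and at 0.892 to 0.906 between the groups. Depth, estimated from the size of the smallest FPKM steps, was 10.1 to 10.2 M reads in the crenolanib libraries, 12.1 to 12.8 M reads in the HPA-12 libraries and 13.57 to 15.98 M reads in DMSO. The 13 mitochondrially encoded protein genes held 35.9% to 36.2% of the FPKM sum with crenolanib, against 21.1% to 22.1% with HPA-12 and 19.59% to 20.003% in DMSO. Scaling to the sum outside these genes would change levels by factors of only 0.991 to 0.995 in crenolanib and 1.001 to 1.012 in HPA-12 libraries. Of 12 myeloid markers, 11 had at least 1 FPKM in all 6 libraries, and CD14 was the exception. Summed, these markers reached 1134 to 1154 FPKM with crenolanib, 755 to 767 FPKM with HPA-12 and 1320 to 1331 FPKM in DMSO. The higher sum with crenolanib than with HPA-12 rested on MPO (means of 344 against 15.95 FPKM) and LYZ (357 against 86.9 FPKM). Among the others, FLT3, CD33, CSF1R, SPI1, CEBPA and MEIS1 had higher means with HPA-12, and PTPRC, ITGAM, CD14 and HOXA9 with crenolanib. The 9 erythroid markers summed to 4178 to 4440 FPKM with crenolanib, against 213 to 220 FPKM with HPA-12 and 76.6 to 83.9 FPKM in DMSO. Most of each sum came from HBB, at means of 4026, 197 and 69.99 FPKM in the same groups. Each of the 9 had a higher mean with crenolanib than with HPA-12. In bulk RNA, fewer cells of a type and less RNA per cell cannot be told apart. Of the markers of other cells, 4 of 5 for megakaryocytes, 3 of 6 for lymphoid cells and 7 of 8 for stromal, endothelial and epithelial cells stayed below 1 FPKM in all 6 libraries. Megakaryocyte markers summed to 2.88 to 4.43 FPKM with crenolanib, 2.29 to 3.37 FPKM with HPA-12 and 1.12 to 1.42 FPKM in DMSO. Lymphoid markers summed to 27.4 to 37.6 FPKM with crenolanib, 52.1 to 55.5 FPKM with HPA-12 and 63.9 to 65.7 FPKM in DMSO, most of it from NKG7 (-0.74 ± 0.12). The third set summed to 23.9 to 27.5 FPKM with crenolanib, 57.1 to 60.7 FPKM with HPA-12 and 11.8 to 12.6 FPKM in DMSO, nearly all of it from PECAM1 (-1.18 ± 0.06), which myeloid cells also express. In wider lists of such markers, 2 of 3 tested megakaryocyte genes, 2 of 4 lymphoid genes and 2 of 3 stromal and epithelial genes were lower with crenolanib and 0 were higher. Leaving out crenolanib library 1 made 1 megakaryocyte gene and 1 lymphoid gene higher, leaving out crenolanib library 2 made 1 lymphoid gene higher, and without crenolanib library 3 or HPA-12 library 1 or 2 only 1 megakaryocyte gene was lower. No gene in the table checks which compound a library received, and the groups are named as the labels name them. Lists of genes linked to FLT3 signalling (immediate early, MAPK feedback and STAT5 genes) held more higher than lower members in libraries labelled crenolanib. Crenolanib is the FLT3 inhibitor, and MYC was lowest in libraries labelled HPA-12. Genes of these routes were not of 1 order beside DMSO. MYC, PIM1, ETV5, DUSP4, DUSP6, SPRY2 and CISH were highest in DMSO, while ARC, EGR1, FOSB, DUSP2, SOCS1 and SOCS3 were highest in libraries labelled crenolanib. Whether any labels were exchanged was not tested, and an exchange of the groups would turn every direction given.

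Crenolanib and HPA-12 libraries differed at many genes, and the largest differences lay on the side of crenolanib. Of 10636 genes, 6956 (65.4%) passed limma's test at an adjusted p under 0.05, with 3050 (28.7%) higher and 3906 (36.7%) lower with crenolanib. With all 12 libraries in the fit, which share 1 estimate of the spread, 4518 genes (42.5%) passed. Differences are log2(FPKM + 1), crenolanib minus HPA-12, with the standard error of the fit; this scale understates the change of low genes. Most differences were small, with a median size of 0.55 among the genes called. Another count asks for a difference over 1 log2 unit as well, which 856 genes (8.05%) met, 647 higher and 209 lower with crenolanib. Beyond 2 log2 units stood 139 higher genes and 0 lower genes, and beyond 5 log2 units 8 higher genes. In 69.8% of the genes tested the 3 crenolanib libraries lay wholly above or wholly below the 3 HPA-12 libraries. The median difference of all genes was -0.07, and -0.01 under median-ratio scaling, under which 3450 genes were higher and 3405 lower, 50.3% of calls on the higher side, against 43.8% as deposited. Of the genes tested, 409 passed the level filter through the crenolanib libraries alone and 115 through the HPA-12 libraries alone. The filter thus set the direction of these genes. Of them 402 were called higher and 108 lower, and these calls stay in the totals, the shares and the list counts. The 409 include ARC, RASD1, RRAD, GADD45G, VGF, ID1, ETV5 and SGMS1, so the p-values of these genes are no independent support. Counts of list members stand against the shares over all genes, 28.7% higher and 36.7% lower. These shares depend on level, and the lists were not matched for it. From the lowest to the highest quintile of mean FPKM, 20.2% and 54.6% were lower and 31.9% and 26.1% higher. With the trend against GC content of the transcript removed, the shares lower were 12.6% and 41.5%.

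**Figure D1:**
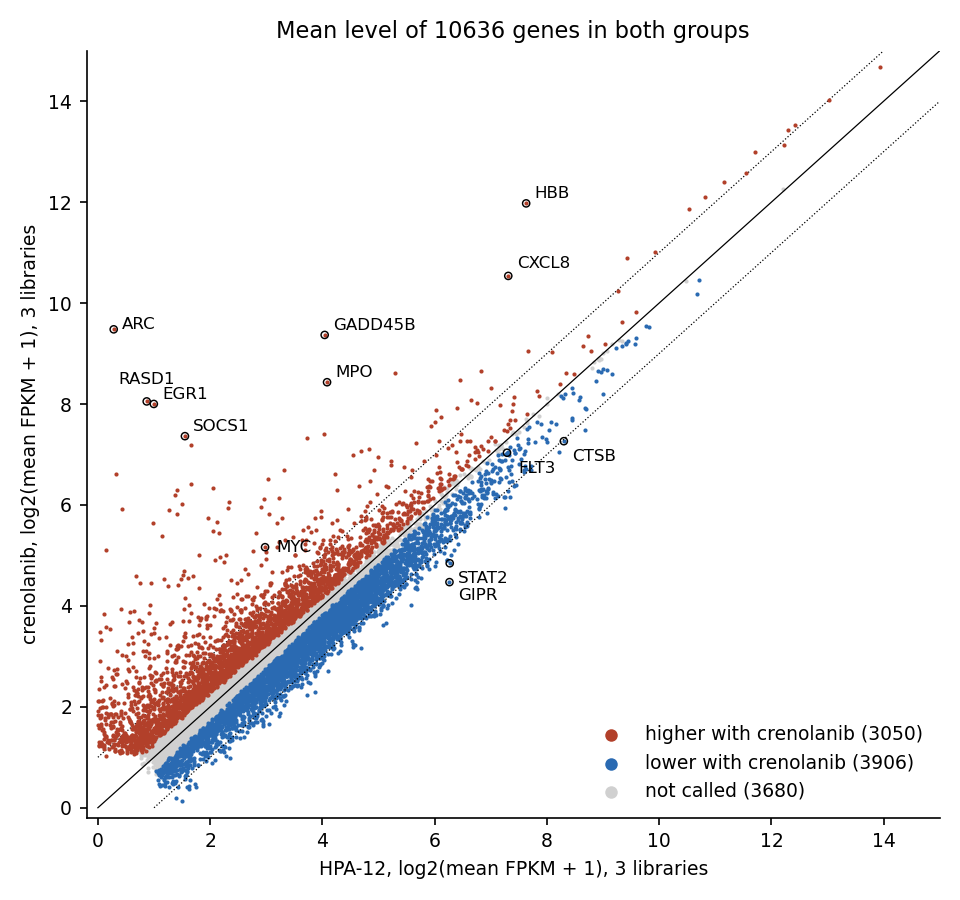
Mean level of each gene tested in crenolanib libraries (vertical axis) against HPA-12 libraries (horizontal axis), both as log2(mean FPKM + 1) over 3 libraries; the solid line marks equal levels and the dotted lines 1 log2 unit. Points above the upper dotted line reach much farther from it than those below the lower one, with ARC, RASD1 and EGR1 the farthest.

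Levels in DMSO lay differently beside the higher and the lower genes. Over all genes tested the DMSO mean lay below both treated means in 4299, between them in 2571 and above both in 3766. Among the 647 genes higher by over 1 log2 unit, the DMSO mean lay below both treated means in 299, between them in 205 and above both in 143. Among the 209 genes lower by over 1 log2 unit, the DMSO mean lay between the treated means in 128, below both in 81 and above both in 0. These are levels, with no test, and both treated groups are read against the same 3 DMSO libraries.

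Differences followed the base composition of the transcripts. In the quintile of genes with the lowest GC content of the longest transcript (31.3% to 41.0%), 54.1% were higher and 5.27% lower with crenolanib. In the quintile with the highest (58.6% to 76.8%), 18.1% were higher and 55.4% lower. Genes lower by over 1 log2 unit numbered 0, 1, 32, 85 and 90 from the lowest to the highest quintile of GC content, and genes higher by over 1 log2 unit 135, 120, 120, 112 and 156. Over 10622 genes with a known transcript, the difference and the GC content had a rank correlation of -0.43, given as a description. The lowest-GC quintile held 13.7% to 13.9% of the FPKM sum outside mitochondrial genes with crenolanib, 8.91% to 10.7% with HPA-12 and 7.54% to 7.78% in DMSO. With each library's trend against GC removed, 3058 genes were higher and 2932 lower, 4719 calls were shared with the values as deposited, and 38 genes were called in the opposite direction. Of the 856 genes over 1 log2 unit, 852 were still called in the same direction. The count of genes lower by over 1 log2 unit fell to 29 with the trend removed, against 209 as deposited. The part of base composition in single differences was not tested.

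**Figure D2:**
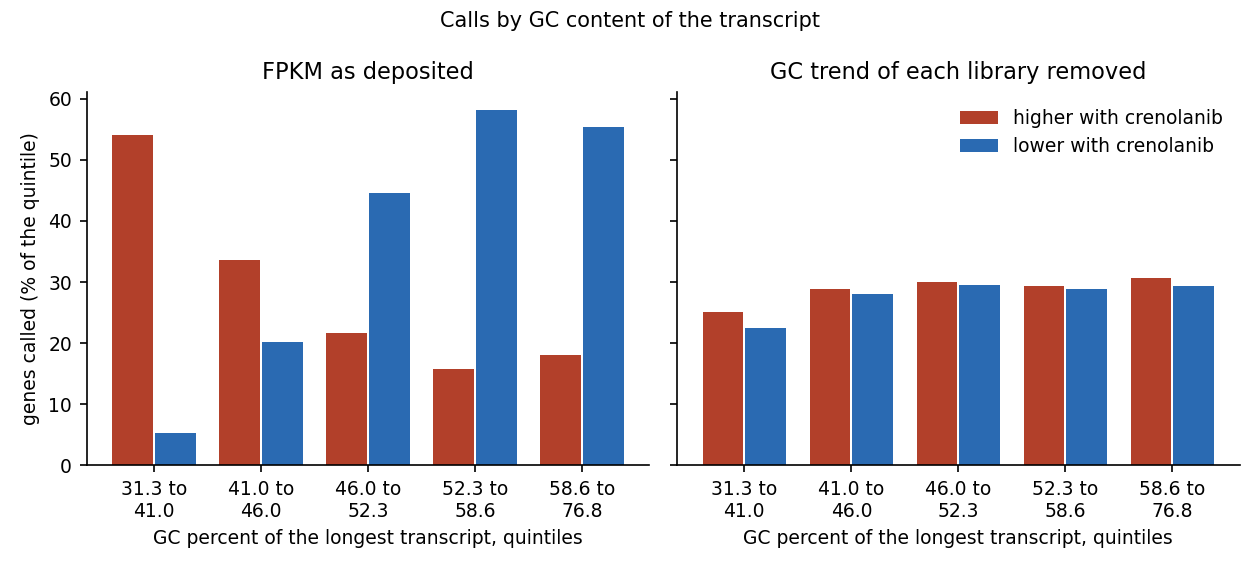
Percent of genes called higher or lower with crenolanib in quintiles of transcript GC content, from FPKM as deposited (left) and with the GC trend of each library removed (right). As deposited the lowest-GC quintile has 54.1% higher and 5.27% lower genes, and with the trend removed the shares lie between 22.4% and 30.7% in every quintile and both directions. The removal subtracts each library's trend against the same GC values, so this evenness follows from its design and is not a finding.

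Immediate early genes, the transcription factors and effectors switched on before any new protein is made, included the largest differences. Of 23 tested members of 25, 20 were higher and 1 lower with crenolanib, with a median of 1.37 against -0.07 over all genes. ARC, a cytoskeletal protein best known from neurons, had 714, 725 and 700.4 FPKM in the crenolanib libraries, against 0.323, 0.194 and 0.131 FPKM in the HPA-12 libraries and 0.0209, 0.0246 and 0.0484 FPKM in DMSO. It was below 1 FPKM in every library of both other groups and at least 700.4 FPKM in each crenolanib library, a difference of 9.201 ± 0.07 (adjusted p = 9.8e-14). ARC passed the level filter through the crenolanib libraries alone, so the direction of this test was set in advance. EGR1, a zinc finger factor induced by growth signals, had 254, 240.4 and 271 FPKM with crenolanib, against 0.923, 1.19 and 0.873 FPKM with HPA-12 and 2.55, 2.72 and 2.29 FPKM in DMSO (7.01 ± 0.08, adjusted p = 1.3e-12). No crenolanib library came near the other groups. FOSB, a partner of JUN in the AP-1 factor, averaged 58.7 ± 2.12 FPKM with crenolanib, 1.403 ± 0.214 FPKM with HPA-12 and 2.1 ± 0.172 FPKM in DMSO (4.64 ± 0.09). JUN itself had 393, 379 and 400.2 FPKM with crenolanib, against 41, 37.1 and 37.2 FPKM with HPA-12 and 6.11, 5.896 and 5.86 FPKM in DMSO (3.31 ± 0.05), so here HPA-12 libraries also lay above DMSO. The stress factor ATF3 had the same order, with 69.6 ± 2.24 FPKM with crenolanib, 8.36 ± 0.493 FPKM with HPA-12 and 1.35 ± 0.0783 FPKM in DMSO (2.92 ± 0.06).

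The serum response element, whose core is the CArG box, is the classic switch of EGR1 in response to growth signals. The EGR1 promoter is shown because 2 CArG boxes, in capitals, lie in the window from 250 bases before to 50 bases after the gene start (RefSeq, GRCh38.p14, chr5:138465229-138465528, plus strand).
EGR1: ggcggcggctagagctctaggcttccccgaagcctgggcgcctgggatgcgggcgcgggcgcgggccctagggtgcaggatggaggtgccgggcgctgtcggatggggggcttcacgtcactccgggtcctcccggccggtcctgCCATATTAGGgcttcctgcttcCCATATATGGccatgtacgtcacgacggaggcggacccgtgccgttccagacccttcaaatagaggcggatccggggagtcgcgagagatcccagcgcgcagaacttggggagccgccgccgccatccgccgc
The boxes begin at positions -105 and -83 from the start. A CArG box was found on either strand in 1.12% of the 8674 promoters matched to genes tested, and in 2 of 17 matched promoters of immediate early genes, with 1 of these 2 genes higher with crenolanib. Among genes higher and lower by over 1 log2 unit the shares were 1.43% and 1.99%.

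Other genes near the top of the ranking had varied roles. RASD1, a RAS-like protein, had 265, 243 and 284 FPKM with crenolanib, against 0.9204, 0.712 and 0.8503 FPKM with HPA-12 and 0.107, 0.295 and 0.166 FPKM in DMSO (7.18 ± 0.08). RRAD, another RAS-like protein, averaged 96.6 ± 6.36 FPKM with crenolanib and 0.2496 ± 0.126 FPKM with HPA-12 (6.29 ± 0.096). GADD45B and GADD45G, which activate stress kinases and slow the cell cycle, stood at 5.33 ± 0.06 and 5.48 ± 0.11. The levels of GADD45B were 687, 624 and 669.5 FPKM with crenolanib, against 16.6, 15.6 and 14.2 FPKM with HPA-12 and 17.6, 15.4 and 17.7 FPKM in DMSO. PHLDA2 (5.54 ± 0.08), a PH-domain protein, VGF (4.94 ± 0.11), a secreted peptide precursor, and C12orf57 (4.76 ± 0.08) were also among the most raised genes. In all of these the crenolanib libraries lay above every HPA-12 and DMSO library.

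**Figure D3:**
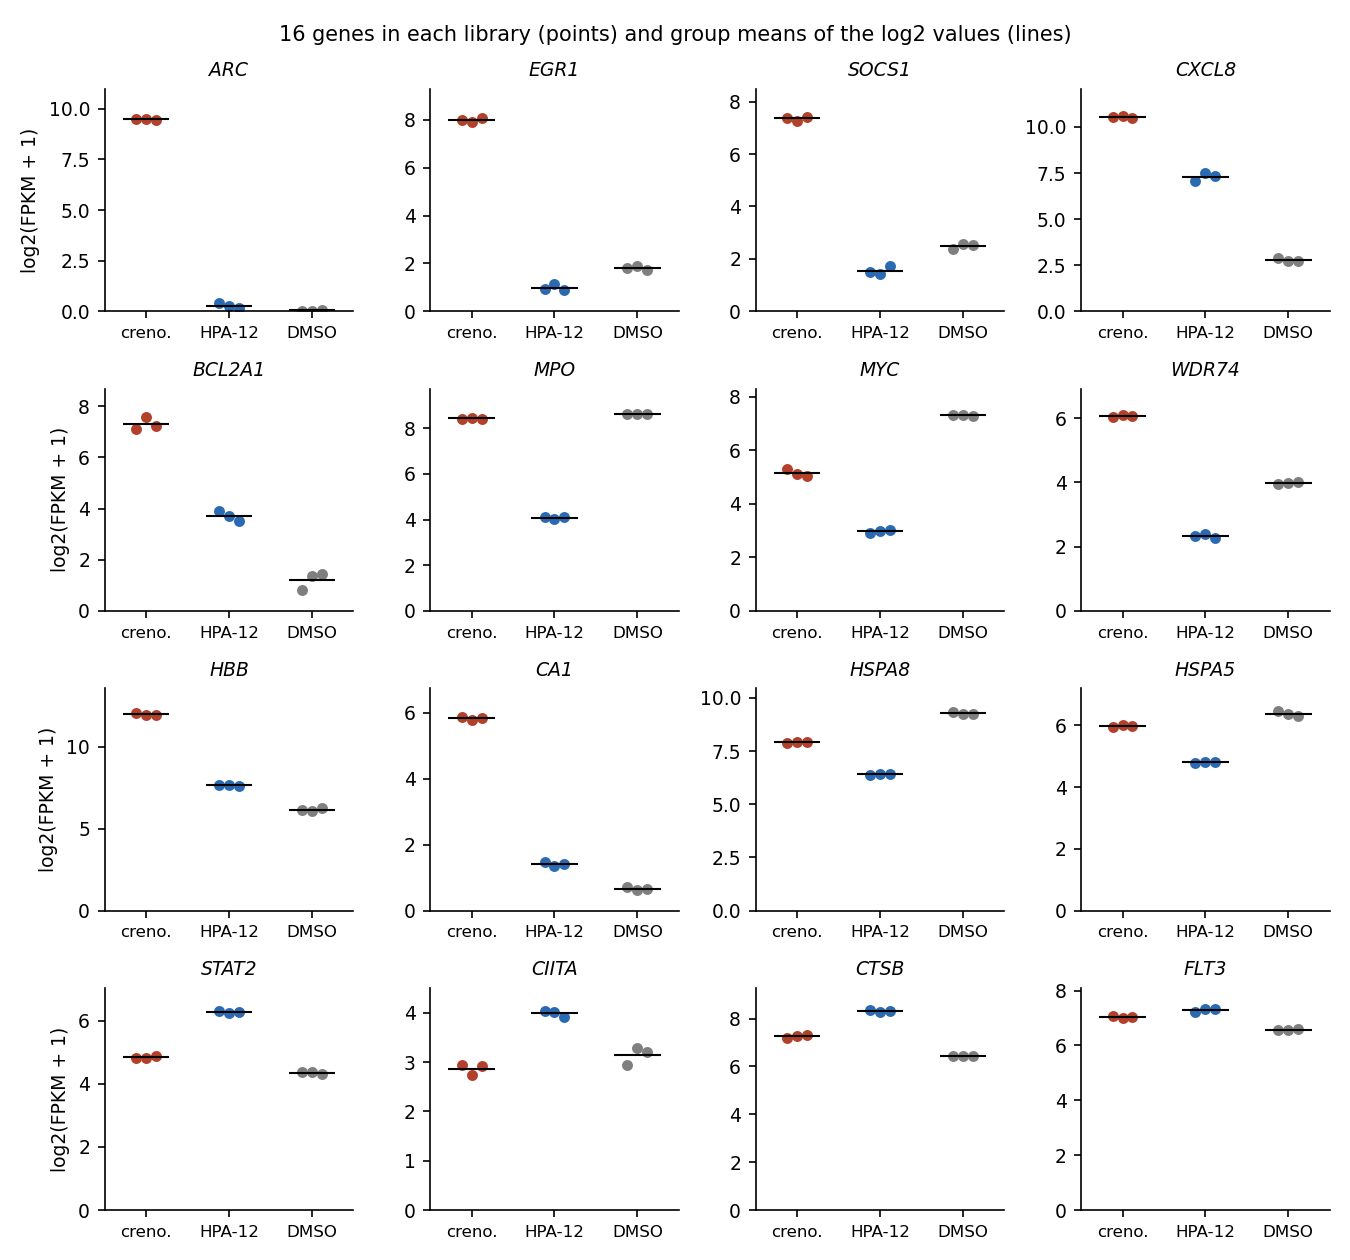
Level of 16 genes in each library as log2(FPKM + 1), with crenolanib, HPA-12 and DMSO libraries from left to right and a line at each group's mean. ARC, EGR1, CXCL8 and HBB are highest with crenolanib, MPO, MYC and HSPA8 are lowest with HPA-12, and STAT2, CIITA and CTSB are highest with HPA-12.

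Feedback genes of the MAPK cascade were higher with crenolanib than with HPA-12. Of 13 tested members of 17, 10 were higher and 1 lower (median 0.72). DUSP2, a nuclear phosphatase of ERK, had 71.5, 70.8 and 76.3 FPKM with crenolanib, against 1.17, 1.85 and 1.78 FPKM with HPA-12 and 7.85, 6.57 and 8.15 FPKM in DMSO (4.84 ± 0.11, adjusted p = 2.68e-10). DUSP8, a phosphatase of the stress kinases JNK and p38, averaged 43.9 ± 3.46 FPKM with crenolanib, 3.13 ± 0.243 FPKM with HPA-12 and 0.123 ± 0.0435 FPKM in DMSO (3.44 ± 0.08). Other members had another order. ETV5, an ETS factor, had 4.47, 4.003 and 3.98 FPKM with crenolanib, against 0.502, 0.273 and 0.4201 FPKM with HPA-12 and 7.54, 7.54 and 6.72 FPKM in DMSO (1.88 ± 0.12), highest in DMSO and lowest with HPA-12. DUSP4 likewise averaged 8.38 ± 0.7899 FPKM with crenolanib, 2.15 ± 0.343 FPKM with HPA-12 and 25.99 ± 0.814 FPKM in DMSO (1.58 ± 0.12). DUSP6, the cytosolic ERK phosphatase, and SPRY2, an inhibitor of receptor signalling, were chosen after their values were seen and had this order too. DUSP6 averaged 10.1 ± 0.834 FPKM with crenolanib, 5.73 ± 0.127 FPKM with HPA-12 and 19.03 ± 0.401 FPKM in DMSO, and SPRY2 averaged 2.496 ± 0.475, 1.499 ± 0.247 and 7.93 ± 0.294 FPKM in the same groups. The MAPK phosphatase DUSP1 was highest with crenolanib, at 49.1 ± 5.47 FPKM, against 22.7 ± 0.452 FPKM with HPA-12 and 3.303 ± 0.667 FPKM in DMSO (1.07 ± 0.08).

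The DUSP8 promoter is shown because it holds 2 full cyclic AMP response elements, TGACGTCA, in capitals (RefSeq, GRCh38.p14, chr11:1572222-1572521, minus strand).
DUSP8: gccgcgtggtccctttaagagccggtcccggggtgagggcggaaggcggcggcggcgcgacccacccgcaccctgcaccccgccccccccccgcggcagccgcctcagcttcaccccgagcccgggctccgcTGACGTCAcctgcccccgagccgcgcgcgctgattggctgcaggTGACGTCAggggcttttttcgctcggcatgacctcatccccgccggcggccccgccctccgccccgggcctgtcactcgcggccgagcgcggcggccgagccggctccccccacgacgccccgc
These begin at -118 and -74. The element, searched on both strands, was in 3.44% of matched promoters and in 2 of 10 promoters of MAPK feedback genes. It was in 5.09% of promoters of genes higher and 3.31% of genes lower by over 1 log2 unit.

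The list of STAT5A, STAT5B, genes linked to them and SOCS inhibitors gave 9 higher and 2 lower of 14 tested (median 0.34); with the GC trend removed, 12 were higher and 0 lower, and with all 12 libraries in the fit 5 and 0. The 2 lower members, named after their values were seen, were STAT5A itself (-0.27 ± 0.08) and BCL6 (-0.29 ± 0.09), a repressor that STAT5 can silence, and without HPA-12 library 1 or under median-ratio scaling 0 were lower. SOCS1, which blocks JAK kinases, had 167, 154 and 169 FPKM with crenolanib, against 1.84, 1.67 and 2.27 FPKM with HPA-12 and 4.13, 4.904 and 4.83 FPKM in DMSO (5.82 ± 0.08, adjusted p = 9.74e-12). The crenolanib libraries stood far above the others, and HPA-12 libraries below DMSO. SOCS3, another such inhibitor, averaged 20.98 ± 0.682 FPKM with crenolanib, 4.58 ± 0.419 FPKM with HPA-12 and 10.1 ± 0.529 FPKM in DMSO (1.98 ± 0.08). ID1, an inhibitor of helix-loop-helix factors, averaged 23.2 ± 2.97 FPKM with crenolanib, 0.606 ± 0.183 FPKM with HPA-12 and 4.33 ± 1.02 FPKM in DMSO (3.92 ± 0.12). The survival kinase PIM1 was lowest with HPA-12 and highest in DMSO, at 31.1 ± 1.55 FPKM with crenolanib, 10.4 ± 0.592 FPKM with HPA-12 and 41.4 ± 0.634 FPKM in DMSO (1.497 ± 0.07). The STAT motif TTCNNNGAA was in 2 of 11 matched promoters of this list, with no match in SOCS1, SOCS3, PIM1 or ID1. It was in 6.3% of all matched promoters, 5.5% of genes higher and 3.97% of genes lower by over 1 log2 unit. CISH, a direct STAT5 target chosen after its values were seen, was low in both treated groups, at 3.59 ± 0.398 FPKM with crenolanib and 2.41 ± 0.197 FPKM with HPA-12, against 12.3 ± 0.559 FPKM in DMSO (0.43 ± 0.11 between the treated groups, a call lost with all 12 libraries in the fit at an adjusted p of 0.156, range over the alternatives 0.00014 to 0.156).

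FLT3, the target of crenolanib, had 135, 126 and 129.7 FPKM in the crenolanib libraries, against 149, 159 and 158 FPKM in the HPA-12 libraries and 94.4, 94.4 and 94.8 FPKM in DMSO (-0.26 ± 0.04, adjusted p = 0.00062). The groups did not overlap, and the difference was small beside those above. Among 13 tested receptor genes, 5 were higher and 6 lower. IL10RA, the receptor of interleukin-10, was lower with crenolanib, at 11.7 ± 0.636 FPKM against 34.2 ± 0.819 FPKM with HPA-12 and 3.07 ± 0.2602 FPKM in DMSO (-1.48 ± 0.06). CSF1R, the receptor of macrophages, had 30.5, 29.4 and 26.9 FPKM with crenolanib, against 78.9, 72.5 and 70.3 FPKM with HPA-12 and 36.5, 34.2 and 33.5 FPKM in DMSO (-1.32 ± 0.06). CSF3R, the receptor for the neutrophil growth factor G-CSF, went the other way, at 20.3 ± 1.55 FPKM with crenolanib and 7.34 ± 0.636 FPKM with HPA-12 (1.35 ± 0.09). Genes of the PI3K-AKT and FOXO list were mixed, 5 higher and 4 lower of 12, with CITED2, a transcriptional co-regulator, at 2.41 ± 0.07.

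NF-kB genes were divided between higher and lower members. Of 18 tested, 9 were higher and 6 lower (median 0.13); with the GC trend removed, 10 were higher and 2 lower. NFKBIZ, a nuclear co-regulator of NF-kB, had 98.9, 105 and 104 FPKM with crenolanib, against 8.06, 9.501 and 9.36 FPKM with HPA-12 and 1.97, 2.11 and 1.61 FPKM in DMSO (3.38 ± 0.07). The inhibitor NFKBIA, an early target of NF-kB, averaged 122 ± 1.79 FPKM with crenolanib, 30.7 ± 0.689 FPKM with HPA-12 and 24.7 ± 0.936 FPKM in DMSO (1.96 ± 0.05). The p50 precursor NFKB1 stood at 2.45 ± 0.06 and the ubiquitin-editing inhibitor TNFAIP3 at 1.58 ± 0.08.

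The chemokines CXCL8 and CXCL2 were high with crenolanib and intermediate with HPA-12. CXCL8, which attracts neutrophils, had 1490, 1518 and 1452 FPKM with crenolanib, against 131, 179.5 and 163 FPKM with HPA-12 and 6.53, 5.55 and 5.57 FPKM in DMSO (3.24 ± 0.09, adjusted p = 1.52e-09). CXCL2, with the same function, had 172, 174 and 163 FPKM with crenolanib, against 15.1, 16.97 and 13.8 FPKM with HPA-12 and 1.57, 1.37 and 1.81 FPKM in DMSO (3.39 ± 0.07). Both chemokines were thus ordered crenolanib, HPA-12, DMSO, with no overlap between the groups. CCL20, which attracts lymphocytes, averaged 12.2 ± 2.703 FPKM with crenolanib and 2.55 ± 0.379 FPKM with HPA-12 (1.88 ± 0.15). The cytokine genes TGFB1 (-0.51 ± 0.05) and IL23A (-0.91 ± 0.096) were lower with crenolanib. In all, 9 of 16 tested ligands were higher and 6 lower; with the GC trend removed, 9 were higher and 3 lower.

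The CXCL2 promoter is shown because 2 kappa B motifs of the form GGNNTTTCC, in capitals, lie next to its start (RefSeq, GRCh38.p14, chr4:74099146-74099445, minus strand).
CXCL2: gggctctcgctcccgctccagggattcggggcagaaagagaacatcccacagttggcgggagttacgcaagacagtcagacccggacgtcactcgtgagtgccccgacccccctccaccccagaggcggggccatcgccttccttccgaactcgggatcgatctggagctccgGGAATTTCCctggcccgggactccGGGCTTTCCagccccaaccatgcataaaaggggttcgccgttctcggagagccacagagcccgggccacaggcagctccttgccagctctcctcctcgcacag
These begin at -77 and -53. Searched on both strands, the motif was in 6 of 12 matched promoters of the chemokine and cytokine list, all 6 of genes higher with crenolanib. In the NF-kB list it was in 7 of 16, 6 of them higher, against 6.82% of all matched promoters. The 2 lists had 9 higher of 16 and 9 higher of 18 genes tested. Over all genes the motif did not follow direction, with 6.77% of higher and 6.59% of lower genes. Beyond 1 log2 unit the shares were 7.74% of higher and 7.95% of lower genes.

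Survival and arrest genes differed in both directions. BCL2A1, an antiapoptotic member of the BCL2 family, had 138, 188 and 151 FPKM with crenolanib, against 13.99, 12.2 and 10.5 FPKM with HPA-12 and 0.754, 1.55 and 1.75 FPKM in DMSO (3.59 ± 0.12). MCL1, with the same role, averaged 152 ± 0.3504 FPKM with crenolanib, 98 ± 1.52 FPKM with HPA-12 and 48.02 ± 0.249 FPKM in DMSO (0.63 ± 0.04). The proapoptotic genes differed among themselves: PMAIP1 (NOXA, 2.85 ± 0.13) and BBC3 (PUMA, 1.19 ± 0.105) were higher and BMF was lower with crenolanib (-1.29 ± 0.05). BMF had 30.7, 31.5 and 30.7 FPKM with crenolanib, against 81.02, 75.1 and 75.3 FPKM with HPA-12 and 18.9, 19.1 and 19.7 FPKM in DMSO. Over the BCL2 family, 7 of 16 were higher and 5 lower, or 8 and 2 with the GC trend removed. Of 16 growth arrest genes 9 were higher and 6 lower (3 lower without crenolanib library 1 or without HPA-12 library 2 or 3), with the CDK inhibitors CDKN1C (1.81 ± 0.08) and CDKN1A (1.19 ± 0.06) among the higher ones. CDKN1A averaged 40.7 ± 1.86 FPKM with crenolanib, 17.3 ± 0.448 FPKM with HPA-12 and 4.05 ± 0.446 FPKM in DMSO. Of 23 genes of the p53 list 10 were higher and 7 lower, with the exonuclease AEN at 2.93 ± 0.11.

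MYC and most genes of ribosome assembly were higher with crenolanib than with HPA-12. MYC, the growth-driving factor, had 38.5, 33.7 and 32.3 FPKM with crenolanib, against 6.62, 7.003 and 7.03 FPKM with HPA-12 and 159.8, 158 and 155 FPKM in DMSO (2.18 ± 0.08, adjusted p = 1.16e-08). Both treated groups lay below DMSO, the HPA-12 libraries farthest. Of 33 tested genes of ribosome biogenesis and RNA polymerase I, 28 were higher and 1 lower with crenolanib, with a median of 0.95 against -0.07 over all genes. WDR74, an assembly factor of the large subunit, had 64.02, 67.6 and 66.1 FPKM with crenolanib, against 4.09, 4.22 and 3.87 FPKM with HPA-12 and 14.5, 14.6 and 15.2 FPKM in DMSO (3.73 ± 0.06). Its crenolanib libraries lay above DMSO and its HPA-12 libraries below. The RNA helicase DDX21 averaged 30.97 ± 1.76 FPKM with crenolanib, 3.895 ± 0.415 FPKM with HPA-12 and 23.3 ± 0.429 FPKM in DMSO (2.71 ± 0.09), the same order. Nucleolin (NCL), an abundant nucleolar protein, averaged 81.7 ± 2.13 FPKM with crenolanib, 34.1 ± 1.11 FPKM with HPA-12 and 128 ± 8.28 FPKM in DMSO (1.24 ± 0.05), with both treated groups below DMSO. RRP12 (1.93 ± 0.11) and GNL3 (1.33 ± 0.07), further assembly factors, had the order of NCL. The lower member was UBTF, a polymerase I factor named after its value was seen (-0.61 ± 0.05). E-boxes of the form CACGTG, the motif MYC binds, were in 9 of 27 matched promoters of this list and in 10.5% of all matched promoters. They were in 13.2% of promoters of genes higher and 10.6% of genes lower by over 1 log2 unit.

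The MYC network of partners and antagonists had 4 higher and 6 lower of 12, with the antagonists MXD4 at -0.68 ± 0.06 and MXI1 at 0.72 ± 0.09. Among 21 tested nucleotide synthesis genes 13 were higher and 2 lower (1 without HPA-12 library 2 or 3), led by the purine enzyme PAICS, at 14.1 ± 0.409 FPKM with crenolanib, 3.58 ± 0.405 FPKM with HPA-12 and 27.8 ± 0.149 FPKM in DMSO (1.72 ± 0.09). CTPS1, which makes CTP, stood at 1.33 ± 0.11. SRM, which makes spermidine, averaged 29.7 ± 1.36 FPKM with crenolanib, 6.96 ± 0.585 FPKM with HPA-12 and 91.4 ± 3.27 FPKM in DMSO (1.95 ± 0.08), while the polyamine list as a whole had 5 higher and 5 lower of 12; with the GC trend removed, 4 were higher and 2 lower. Of 21 translation factors 10 were higher and 7 lower, or 12 and 3 with the GC trend removed, and EIF3A, a scaffold of the initiation complex, stood at 1.21 ± 0.06. Serine, folate-linked carbon and proline enzymes had 7 higher and 5 lower of 13, or 7 and 3 with the GC trend removed; without HPA-12 library 3 the lower ones numbered 3. PYCR1, which makes proline, averaged 7.11 ± 1.26 FPKM with crenolanib, 2.08 ± 0.567 FPKM with HPA-12 and 29.1 ± 1.14 FPKM in DMSO (1.402 ± 0.16). Cytosolic ribosomal proteins had no common direction: 8 of 32 were higher and 13 lower as deposited, against 16 higher and 4 lower with the GC trend removed.

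Most chaperones of the cytosol were higher with crenolanib than with HPA-12. Of 23 cytosolic heat shock genes 18 were higher and 2 lower with crenolanib (median 0.60; 1 lower without crenolanib library 1 or 2 or HPA-12 library 1 or 3). HSPA8, the constitutive HSP70, had 233, 247 and 242 FPKM with crenolanib, against 81.8, 84.2 and 84.5 FPKM with HPA-12 and 655, 609 and 603 FPKM in DMSO (1.51 ± 0.04, adjusted p = 1.31e-09). HSP90AB1, the constitutive HSP90, averaged 319 ± 6.55 FPKM with crenolanib, 127 ± 2.73 FPKM with HPA-12 and 724 ± 21.1 FPKM in DMSO (1.32 ± 0.04). The stress-induced HSPA1B was highest with crenolanib, at 38.1, 43.1 and 39.6 FPKM, against 11.4, 9.13 and 9.91 FPKM with HPA-12 and 15.6, 16.7 and 16.9 FPKM in DMSO (1.89 ± 0.09). HSPA1A, its near-identical neighbour, with which it may share reads, stood at 1.63 ± 0.08. All 8 subunits of TRiC, the ring that folds actin and tubulin, were higher with crenolanib, with a median of 0.78 and CCT2 at 1.08 ± 0.07. Of 10 mitochondrial chaperones and proteases 6 were higher and 1 lower (0 without crenolanib library 3), with HSPD1, the mitochondrial HSP60, at 43.1 ± 1.8 FPKM with crenolanib, 12.9 ± 1.41 FPKM with HPA-12 and 72.9 ± 3.01 FPKM in DMSO (1.67 ± 0.08). Among 29 proteasome subunits 14 were higher and 4 lower, with PSMD12 at 1.298 ± 0.1 and PSMD4 at -0.48 ± 0.06.

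The HSPA1B promoter is shown because it holds the core of a heat shock element, GAANNTTC, in capitals (RefSeq, GRCh38.p14, chr6:31827488-31827787, plus strand).
HSPA1B: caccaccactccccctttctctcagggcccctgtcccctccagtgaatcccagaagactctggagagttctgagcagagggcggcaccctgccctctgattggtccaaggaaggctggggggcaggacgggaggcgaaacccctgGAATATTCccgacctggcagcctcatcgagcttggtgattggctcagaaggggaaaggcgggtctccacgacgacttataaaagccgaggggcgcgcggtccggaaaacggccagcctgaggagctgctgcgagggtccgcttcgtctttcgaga
The core begins at -105. The same core, searched on both strands, was in 7 of 21 matched promoters of the heat shock list, 6 of them of genes higher with crenolanib, and in 4.53% of all matched promoters. Its shares among genes higher and lower by over 1 log2 unit were 5.7% and 3.31%.

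In the endoplasmic reticulum most chaperones were higher with crenolanib, while most called degradation factors and sensors were lower. Of 18 chaperones 11 were higher and 1 lower with crenolanib (median 0.31). HSPA5 (GRP78), the main chaperone there, had 61.1, 63.5 and 62.4 FPKM with crenolanib, against 26.3, 27.3 and 26.9 FPKM with HPA-12 and 87.1, 82.02 and 77.8 FPKM in DMSO (1.19 ± 0.05, adjusted p = 3.25e-08). The HSPA5 values of both treated groups lay below DMSO. HSP90B1, the HSP90 of the endoplasmic reticulum, averaged 19.1 ± 0.208 FPKM with crenolanib, 9.14 ± 1.07 FPKM with HPA-12 and 14.2 ± 0.534 FPKM in DMSO (0.99 ± 0.09). Calreticulin (CALR), a chaperone of glycoproteins, averaged 231 ± 7.08 FPKM with crenolanib, 165 ± 5.24 FPKM with HPA-12 and 607 ± 47.8 FPKM in DMSO (0.48 ± 0.04). Of 17 sensors and degradation factors 3 were higher and 9 lower, or 1 and 5 with all 12 libraries in the fit, with the lectin OS9 at -0.63 ± 0.05. XBP1, a factor of the unfolded protein response, averaged 31.3 ± 2.26 FPKM with crenolanib, 23.03 ± 1.01 FPKM with HPA-12 and 60.3 ± 2.66 FPKM in DMSO (0.42 ± 0.07, adjusted p = 0.000372); with all 12 libraries in the fit its adjusted p was 0.0604 (range over the alternatives 5.25e-05 to 0.0604).

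The stress factors ATF6, DDIT3 and ATF4 differed little between the treated groups. ATF6, a sensor cleaved under stress, had 6.88, 6.06 and 6.702 FPKM with crenolanib, against 5.91, 6.64 and 6.17 FPKM with HPA-12 and 4.29, 4.53 and 4.19 FPKM in DMSO (0.06 ± 0.09, adjusted p = 0.579). DDIT3 (CHOP) had 1.14, 6.44 and 2.28 FPKM with crenolanib, against 2.28, 3.24 and 2.51 FPKM with HPA-12 and 1.77, 1.97 and 2.995 FPKM in DMSO (0.03 ± 0.35, adjusted p = 0.939). Its crenolanib libraries spread around those of HPA-12, and without crenolanib library 2 the difference was -0.46 (adjusted p = 0.0587, range over the alternatives 0.0587 to 0.993). ATF4 had 147, 135 and 139.9 FPKM with crenolanib, against 163, 161 and 160 FPKM with HPA-12 and 86.7, 86.3 and 89.3 FPKM in DMSO (-0.19 ± 0.04, adjusted p = 0.00251). This direction turned with the GC trend removed (0.16, adjusted p = 0.00525), and the call was lost under median-ratio scaling (adjusted p = 0.0684), with a range of 0.00112 to 0.101 over the alternatives. Of 21 genes of the integrated stress list, which holds ATF4 and DDIT3 beside genes that they drive, 7 were higher and 8 lower as deposited, against 9 and 2 with the GC trend removed; 5 were lower without HPA-12 library 3 and 4 under median-ratio scaling. PPP1R15A (GADD34), which restarts translation, averaged 145 ± 7.998 FPKM with crenolanib, 78.7 ± 3.15 FPKM with HPA-12 and 42.5 ± 1.61 FPKM in DMSO (0.87 ± 0.05), and the stress cytokine GDF15 stood at 1.88 ± 0.14.

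Granule protein genes of neutrophil precursors were higher with crenolanib than with HPA-12. Of 18 tested, 17 were higher and 0 lower with crenolanib than with HPA-12 (median 1.54). Myeloperoxidase (MPO) had 342, 349 and 342 FPKM with crenolanib, against 16.4, 15.2 and 16.2 FPKM with HPA-12 and 390, 389 and 392 FPKM in DMSO (4.35 ± 0.05, adjusted p = 1.15e-12). Lysozyme (LYZ) had 354, 365 and 352 FPKM with crenolanib, against 81.6, 89.4 and 89.7 FPKM with HPA-12 and 408, 399 and 389 FPKM in DMSO (2.03 ± 0.05). In both genes crenolanib libraries lay a little below DMSO and HPA-12 libraries far below. The serine proteases CTSG (2.38 ± 0.07) and ELANE (1.84 ± 0.06) had the same order, with ELANE at 234 ± 16.03 FPKM with crenolanib, 64.3 ± 3.55 FPKM with HPA-12 and 285 ± 23.5 FPKM in DMSO. RNASE3, an eosinophil granule ribonuclease, was highest with crenolanib, at 149 ± 8.38 FPKM, against 50.1 ± 1.296 FPKM with HPA-12 and 116 ± 7.95 FPKM in DMSO (1.55 ± 0.05). The myeloid transcription factors SPI1 and CEBPA were lower with crenolanib. SPI1 (PU.1) averaged 151 ± 11.1 FPKM with crenolanib, 254 ± 10.7 FPKM with HPA-12 and 234 ± 3.82 FPKM in DMSO (-0.74 ± 0.06), and CEBPA averaged 55.3 ± 1.46 FPKM with crenolanib, 98.1 ± 7.72 FPKM with HPA-12 and 113 ± 5.18 FPKM in DMSO (-0.81 ± 0.06). Monocyte markers were mixed, 8 higher and 5 lower of 16, with CD36, a scavenger receptor that red cell precursors also carry, at 1.09 ± 0.11 and CSF1R as above. Of 18 genes of the KMT2A-fusion programme 6 were higher and 3 lower, 9 called members of 18 where 65.4% of all genes were called, with the kinase CDK6 at 0.899 ± 0.11.

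Red cell genes, not typical of a myeloid line, were high with crenolanib. The summed erythroid markers given above, mostly HBB, moved with them. Of 23 tested membrane proteins and enzymes 22 were higher and 0 lower (median 1.72), and of 18 globin and haem genes 13 were higher and 2 lower (median 1.02). Beta globin (HBB) had 4183, 3934 and 3962 FPKM with crenolanib, against 202, 197 and 193 FPKM with HPA-12 and 68.03, 67.3 and 74.7 FPKM in DMSO (4.34 ± 0.04, adjusted p = 1.64e-13). The groups were ordered crenolanib, HPA-12, DMSO. AHSP, which shields free alpha globin, had 83.7, 72.6 and 75.5 FPKM with crenolanib, against 1.07, 2.37 and 1.49 FPKM with HPA-12 and 1.07, 0.4202 and 0.413 FPKM in DMSO (4.92 ± 0.15). Alpha globin, named after its values were seen, was low beside beta globin: HBA1 averaged 19.99 ± 3.03 FPKM with crenolanib, 1.38 ± 0.1204 FPKM with HPA-12 and 0.498 ± 0.348 FPKM in DMSO, and HBA2, a near-identical copy that may share its reads, was listed at 0 in all 3 HPA-12 libraries. ALAS2, which starts haem synthesis in red cells, averaged 90.8 ± 7.99 FPKM with crenolanib, 7.13 ± 0.709 FPKM with HPA-12 and 4.22 ± 0.413 FPKM in DMSO (3.497 ± 0.08).

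Among membrane and enzyme genes of red cells CA1, SLC4A1 and HEMGN had this order. Carbonic anhydrase CA1 had 57.3, 54.4 and 55.8 FPKM with crenolanib, against 1.76, 1.57 and 1.64 FPKM with HPA-12 and 0.6305, 0.543 and 0.588 FPKM in DMSO (4.42 ± 0.07). The anion exchanger SLC4A1, band 3 of the red cell membrane, had 70.1, 68.4 and 65.7 FPKM with crenolanib, against 7.03, 6.68 and 6.66 FPKM with HPA-12 and 2.08, 2.88 and 2.12 FPKM in DMSO (3.15 ± 0.06). HEMGN, a nuclear protein of erythroid cells, averaged 49.1 ± 4.196 FPKM with crenolanib, 0.9797 ± 0.436 FPKM with HPA-12 and 0.378 ± 0.159 FPKM in DMSO (4.68 ± 0.15). Other members of the list did not: PRDX2, a peroxiredoxin, was highest in DMSO, at 43.5 ± 1.61 FPKM with crenolanib, 19.5 ± 0.409 FPKM with HPA-12 and 59.8 ± 1.5 FPKM in DMSO (1.12 ± 0.06), and the list summed to 421 to 436 FPKM with crenolanib, 106 to 112 FPKM with HPA-12 and 131 to 139 FPKM in DMSO. The lineage factors GATA1 and TAL1 were low and ordered as CA1. GATA1 averaged 4.84 ± 0.0945 FPKM with crenolanib, 1.18 ± 0.331 FPKM with HPA-12 and 0.475 ± 0.0439 FPKM in DMSO (1.43 ± 0.13), and TAL1, its partner, 6.004 ± 0.842 FPKM with crenolanib, 0.895 ± 0.244 FPKM with HPA-12 and 0.3003 ± 0.0963 FPKM in DMSO (1.89 ± 0.14). Over all 21 lineage factors 8 were higher and 8 lower, or 11 and 3 with the GC trend removed, and 5 were lower under median-ratio scaling. Of 13 iron genes 7 were higher and 0 lower, or 9 and 2 with the GC trend removed. TFRC, the transferrin receptor, was lowest with HPA-12, at 34.9 ± 0.209 FPKM with crenolanib, 8.14 ± 0.156 FPKM with HPA-12 and 31.4 ± 1.43 FPKM in DMSO (1.98 ± 0.06), while HMOX1, which degrades haem, had 137 ± 6.48 FPKM with crenolanib, 27.3 ± 1.36 FPKM with HPA-12 and 10.8 ± 0.117 FPKM in DMSO (2.29 ± 0.06). Whether cells or RNA of another source have a part in the red cell signal was not tested.

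The ALAS2 promoter is shown because 2 overlapping GT boxes, bound by Kruppel-like factors and written CCACCC or on the other strand GGGTGG, lie close to its start, in capitals (RefSeq, GRCh38.p14, chrX:55030928-55031227, minus strand).
ALAS2: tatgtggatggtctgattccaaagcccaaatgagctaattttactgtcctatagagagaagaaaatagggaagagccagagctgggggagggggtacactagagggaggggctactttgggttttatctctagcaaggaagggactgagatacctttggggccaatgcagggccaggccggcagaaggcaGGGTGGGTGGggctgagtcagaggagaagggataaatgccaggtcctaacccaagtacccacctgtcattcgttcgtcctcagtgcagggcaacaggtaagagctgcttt
These begin at -60 and -56. The box is common: searched on both strands, it was in 37.7% of matched promoters, in 7 of 16 promoters of the red cell membrane list and in 4 of 10 of the globin and haem list. Genes higher and lower by over 1 log2 unit had it in 38.1% and 43.7% of promoters.

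**Figure D4:**
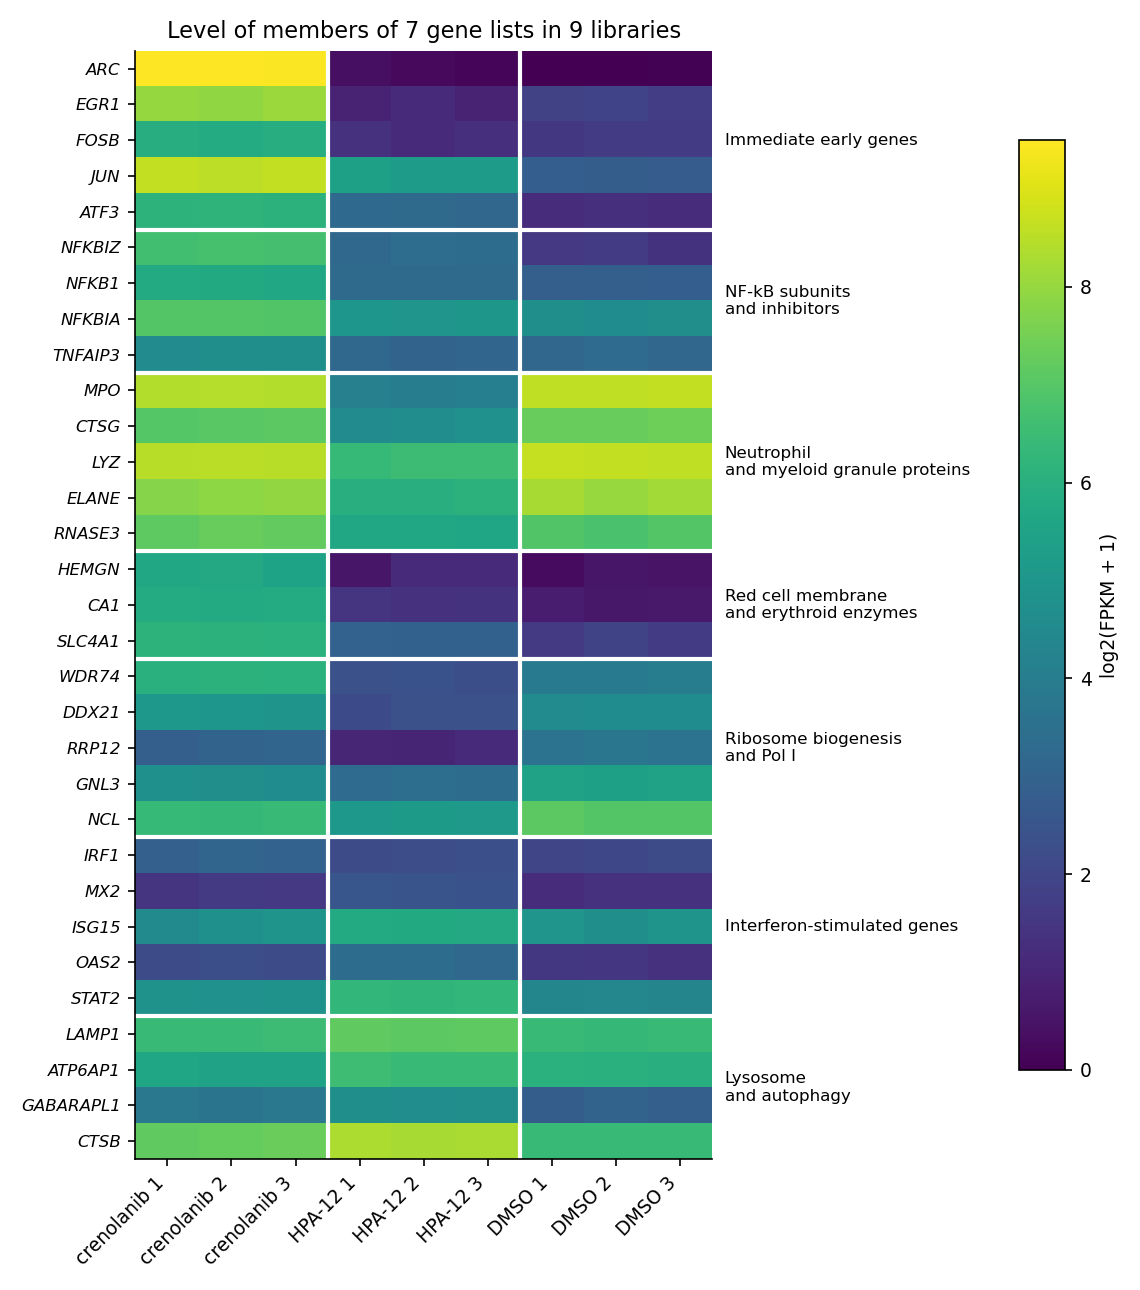
Level of 3 to 5 members of each of 7 gene lists, as log2(FPKM + 1) in colour, in 3 crenolanib, 3 HPA-12 and 3 DMSO libraries from left to right. Immediate early, NF-kB and red cell genes are brightest with crenolanib, granule protein genes are darkest with HPA-12, and lysosomal and most interferon genes are brightest with HPA-12.

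All 13 mitochondrially encoded genes were higher with crenolanib (median 1.12). MT-CO3, a subunit of cytochrome oxidase, had 16810, 16460 and 16750 FPKM with crenolanib, against 8484, 7906 and 8630 FPKM with HPA-12 and 8691, 7830 and 8201 FPKM in DMSO (1.000 ± 0.03). HPA-12 libraries stood close to DMSO here. MT-ND4, a subunit of complex I, averaged 8170 ± 119 FPKM with crenolanib, 3344 ± 84.2 FPKM with HPA-12 and 3527 ± 213 FPKM in DMSO (1.29 ± 0.03). Nuclear genes of the same complexes had 6 higher and 10 lower of 30 as deposited, against 12 and 5 with the GC trend removed. Under median-ratio scaling 11 were higher and 6 lower, and without HPA-12 library 3 the lower ones numbered 6. Cytochrome c (CYCS) was higher with crenolanib (1.31 ± 0.101) and the complex III subunit UQCRC1 lower (-0.51 ± 0.05).

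Most interferon-stimulated genes that differed were lower with crenolanib than with HPA-12. Of 27 tested, 2 were higher and 17 lower (median -0.38), and with the GC trend removed 3 and 15. With all 12 libraries in the fit 1 was higher and 8 were lower. STAT2, the transducer of type I interferon, had 27.4, 27.3 and 28.5 FPKM with crenolanib, against 77.5, 73.8 and 76.9 FPKM with HPA-12 and 19.5, 19.9 and 19.01 FPKM in DMSO (-1.43 ± 0.05, adjusted p = 8.59e-09). ISG15, a ubiquitin-like protein, had 22.01, 26.1 and 29.5 FPKM with crenolanib, against 55.3, 53.5 and 52.8 FPKM with HPA-12 and 30.4, 25.7 and 29.3 FPKM in DMSO (-1.04 ± 0.09). HPA-12 libraries were highest in both genes; crenolanib libraries lay above DMSO in STAT2 and overlapped it in ISG15. OAS2, an antiviral enzyme, stood at -1.08 ± 0.096 and MX2, an antiviral GTPase, at -0.92 ± 0.11. IRF1, a factor induced by interferon gamma, went the other way, at 7.05 ± 0.545 FPKM with crenolanib, 3.78 ± 0.225 FPKM with HPA-12 and 3.24 ± 0.286 FPKM in DMSO (0.75 ± 0.097).

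Antigen presentation genes had fewer higher than lower members. Of 11 tested MHC class II genes 0 were higher and 8 lower (median -0.57). CIITA, their master regulator, had 6.64, 5.696 and 6.603 FPKM with crenolanib, against 15.3, 15.2 and 14.1 FPKM with HPA-12 and 6.62, 8.68 and 8.27 FPKM in DMSO (-1.12 ± 0.09). CD74, the invariant chain, averaged 192 ± 3.25 FPKM with crenolanib, 287 ± 9.59 FPKM with HPA-12 and 268 ± 6.73 FPKM in DMSO (-0.57 ± 0.04), and HLA-DRA, the alpha chain of HLA-DR, 106 ± 2.24 FPKM with crenolanib, 157 ± 1.43 FPKM with HPA-12 and 141 ± 12.1 FPKM in DMSO (-0.56 ± 0.04). Of 15 class I genes 2 were higher and 7 lower, or 5 and 5 with the GC trend removed, and 1 was higher without HPA-12 library 3. HLA-E, which restrains natural killer cells, had 103, 112 and 109.8 FPKM with crenolanib, against 213, 205 and 209 FPKM with HPA-12 and 118, 114 and 112 FPKM in DMSO (-0.95 ± 0.04). Among 14 immune-regulatory surface genes 3 were higher and 8 lower. PDCD1 (PD-1), an inhibitory receptor, averaged 52.99 ± 1.65 FPKM with crenolanib, 14.7 ± 0.592 FPKM with HPA-12 and 0.284 ± 0.153 FPKM in DMSO (1.78 ± 0.06). CD86, a costimulatory ligand, averaged 15.9 ± 1.64 FPKM with crenolanib, 28.5 ± 1.25 FPKM with HPA-12 and 2.77 ± 0.0821 FPKM in DMSO (-0.804 ± 0.08), and the checkpoint protein VSIR (VISTA) stood at -1.06 ± 0.06.

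Lysosomal genes were mostly lower with crenolanib than with HPA-12. Of 28 tested lysosome and autophagy genes 1 was higher and 21 were lower with crenolanib (median -0.46), and with the GC trend removed 2 and 17. Cathepsin B (CTSB), a lysosomal protease, had 146, 153 and 159 FPKM with crenolanib, against 323, 306 and 315 FPKM with HPA-12 and 84.6, 85.4 and 86.4 FPKM in DMSO (-1.04 ± 0.04, adjusted p = 3.53e-08). LAMP1, of the lysosomal membrane, had 82.9, 85.7 and 89.9 FPKM with crenolanib, against 144, 139 and 141 FPKM with HPA-12 and 84.5, 79.7 and 83.9 FPKM in DMSO (-0.71 ± 0.05). GABARAPL1, an autophagosome protein, averaged 12.5 ± 0.761 FPKM with crenolanib, 25.2 ± 0.672 FPKM with HPA-12 and 6.49 ± 0.583 FPKM in DMSO (-0.96 ± 0.07). The proton pump subunit ATP6AP1 was lower in like measure (-0.95 ± 0.06).

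Sphingolipid genes, the pathway in which HPA-12 acts, had more lower members on the side of breakdown. Of 21 breakdown and sphingosine phosphate genes 3 were higher and 12 lower with crenolanib (median -0.36), and with all 12 libraries in the fit 0 and 6. Prosaposin (PSAP), the precursor of the activators that lysosomal hydrolases need, had 287, 292 and 302 FPKM with crenolanib, against 529, 492 and 507 FPKM with HPA-12 and 256, 242 and 253 FPKM in DMSO (-0.79 ± 0.04). GLB1 (-0.71 ± 0.08), which trims gangliosides, and SMPD1 (-0.83 ± 0.102), the acid sphingomyelinase, were lower as well. SGPL1, which cleaves sphingosine phosphate, averaged 3.57 ± 0.421 FPKM with crenolanib, 6.86 ± 0.137 FPKM with HPA-12 and 4.81 ± 0.0201 FPKM in DMSO (-0.79 ± 0.1). Of 21 ceramide synthesis and transport genes 5 were higher and 7 lower (median 0.10), and with all 12 libraries in the fit 3 and 3. CERT1, the gene of the target of HPA-12, had 4.44, 4.398 and 4.76 FPKM with crenolanib, against 2.68, 3.36 and 3.24 FPKM with HPA-12 and 1.58, 1.66 and 1.57 FPKM in DMSO (0.44 ± 0.11, adjusted p = 0.00446); with all 12 libraries in the fit its adjusted p was 0.0554, and with the GC trend removed the difference was 0.23 (adjusted p = 0.048, or 0.0802 with a replicate block added, which ends the call; range over the alternatives 0.00108 to 0.0802). The ceramide synthase CERS6 averaged 10.1 ± 0.626 FPKM with crenolanib, 4.54 ± 0.569 FPKM with HPA-12 and 5.598 ± 1.06 FPKM in DMSO (1.000 ± 0.102). SGMS1, which makes sphingomyelin in the Golgi, averaged 2.25 ± 0.0748 FPKM with crenolanib, 0.634 ± 0.189 FPKM with HPA-12 and 0.862 ± 0.114 FPKM in DMSO (1.000 ± 0.12), and the ceramide kinase CERK stood at -0.57 ± 0.06.

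Sterol genes were higher with crenolanib in part of the pathway. Of 22 cholesterol genes 10 were higher and 3 lower (median 0.14; 5 lower without crenolanib library 2), and with the GC trend removed 14 and 1. MSMO1, a late enzyme of the pathway, had 43.2, 46 and 44.4 FPKM with crenolanib, against 9.03, 14.9 and 10.8 FPKM with HPA-12 and 8.14, 5.81 and 6.202 FPKM in DMSO (1.88 ± 0.14). The early enzyme HMGCS1 averaged 23.1 ± 1.78 FPKM with crenolanib, 10.9 ± 0.749 FPKM with HPA-12 and 8.38 ± 0.436 FPKM in DMSO (1.01 ± 0.08). Of 15 LXR and fatty acid genes 5 were higher and 6 lower. Fatty acid synthase (FASN) averaged 50.8 ± 3.74 FPKM with crenolanib, 26.1 ± 1.87 FPKM with HPA-12 and 126 ± 1.301 FPKM in DMSO (0.93 ± 0.07), while SREBF1, its regulator, was lower with crenolanib (-0.84 ± 0.06).

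The most lowered single genes, of which not all that the rule takes are given, came from varied families, and none was lower by over 2 log2 units. GIPR, a receptor for the gut hormone GIP, had 22.6, 18.5 and 22.4 FPKM with crenolanib, against 76, 75.5 and 76.1 FPKM with HPA-12 and 10.7, 12.3 and 11.7 FPKM in DMSO (-1.800 ± 0.07, adjusted p = 3e-08). CD70, a ligand of the TNF family, had 15.7, 15.5 and 14.4 FPKM with crenolanib, against 48.1, 47.2 and 45.2 FPKM with HPA-12 and 8.3, 7.51 and 9.81 FPKM in DMSO (-1.56 ± 0.06). In these genes HPA-12 libraries stood apart and crenolanib libraries lay between them and DMSO. IGSF22 (-1.57 ± 0.11), TMEM86A (-1.53 ± 0.12), which cleaves lysoplasmalogen lipids, and the histone gene H4C4 (-1.502 ± 0.18) had the same order, and H4C4 lost its call with all 12 libraries in the fit (adjusted p = 0.158, range over the alternatives 1.61e-06 to 0.158). TOX2 (-1.41 ± 0.1), a nuclear factor, SLC16A5 (-1.399 ± 0.08), a transporter of the monocarboxylate family, CALHM2 (-1.37 ± 0.12), a channel protein, and SLC4A3 (-1.37 ± 0.096), an anion exchanger, had their highest level with HPA-12. With the GC trend removed these 9 genes ranged from -1.43 for GIPR to -0.99 for CALHM2.

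Differences among mitosis, replication and G1 genes stayed within 1 log2 unit, unlike those of some histone genes. Of 27 mitosis genes 4 were higher and 13 lower with crenolanib (median -0.26); 2 were higher without HPA-12 library 1 or 3 or with the GC trend removed, and 7 under median-ratio scaling. CCNB1, the mitotic cyclin, chosen after its values were seen, stood at -0.44 ± 0.08. UBE2C, a ubiquitin enzyme of anaphase, averaged 25.7 ± 1.17 FPKM with crenolanib, 39.1 ± 0.786 FPKM with HPA-12 and 31.3 ± 2.495 FPKM in DMSO (-0.59 ± 0.06). Of 29 replication genes 5 were higher and 10 lower, or 5 and 5 with the GC trend removed; the licensing factor CDT1 averaged 21.1 ± 1.01 FPKM with crenolanib, 41.2 ± 3.31 FPKM with HPA-12 and 25.4 ± 1.22 FPKM in DMSO (-0.93 ± 0.07). G1 cyclins and kinases had 10 higher and 1 lower of 14, but 5 higher without HPA-12 library 1, 6 higher without HPA-12 library 3 and 2 higher with all 12 libraries in the fit. Replication-dependent histones were divided, with 13 higher and 5 lower of 26. H4C3 had 66.7, 58.3 and 56.5 FPKM with crenolanib, against 3.58, 4.096 and 4.25 FPKM with HPA-12 and 1.24, 1.64 and 1.43 FPKM in DMSO (3.63 ± 0.09), while H2BC12 had 241, 242 and 236 FPKM with crenolanib, against 419, 410.2 and 416 FPKM with HPA-12 and 116, 119 and 121 FPKM in DMSO (-0.79 ± 0.03). Histone genes have near-identical copies, so the value of a single copy is uncertain.

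Smaller lists held further differences. BMP6, a ligand of the BMP pathway, was lower with crenolanib, at 5.95 ± 0.817 FPKM with crenolanib, 14.4 ± 0.394 FPKM with HPA-12 and 0.07495 ± 0.0903 FPKM in DMSO (-1.16 ± 0.096), while ID3, a BMP target like ID1, was higher (2.17 ± 0.17); the BMP and SMAD list had 6 higher and 4 lower of 10. Kruppel-like factors had 5 higher and 3 lower of 11, with KLF10, an early response gene, at 117 ± 5.07 FPKM with crenolanib, 36.5 ± 0.878 FPKM with HPA-12 and 10.9 ± 0.476 FPKM in DMSO (1.65 ± 0.05) and KLF13 lower (-0.88 ± 0.05). In the NRF2 list 8 of 14 were higher and 4 lower, or 9 and 2 with the GC trend removed, and GCLM, which makes glutathione, stood at 1.84 ± 0.11. Peroxiredoxin and thioredoxin genes had 10 higher and 5 lower of 16, or 8 and 3 with the GC trend removed. PRDX2, a peroxiredoxin abundant in red cells, stood at 1.12 ± 0.06. Glycolysis and hypoxia genes had 9 higher and 7 lower of 22, or 14 and 4 with the GC trend removed, with the vasodilator peptide ADM at 2.64 ± 0.18 and the enzyme PFKL at -0.82 ± 0.06.

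**Figure D5:**
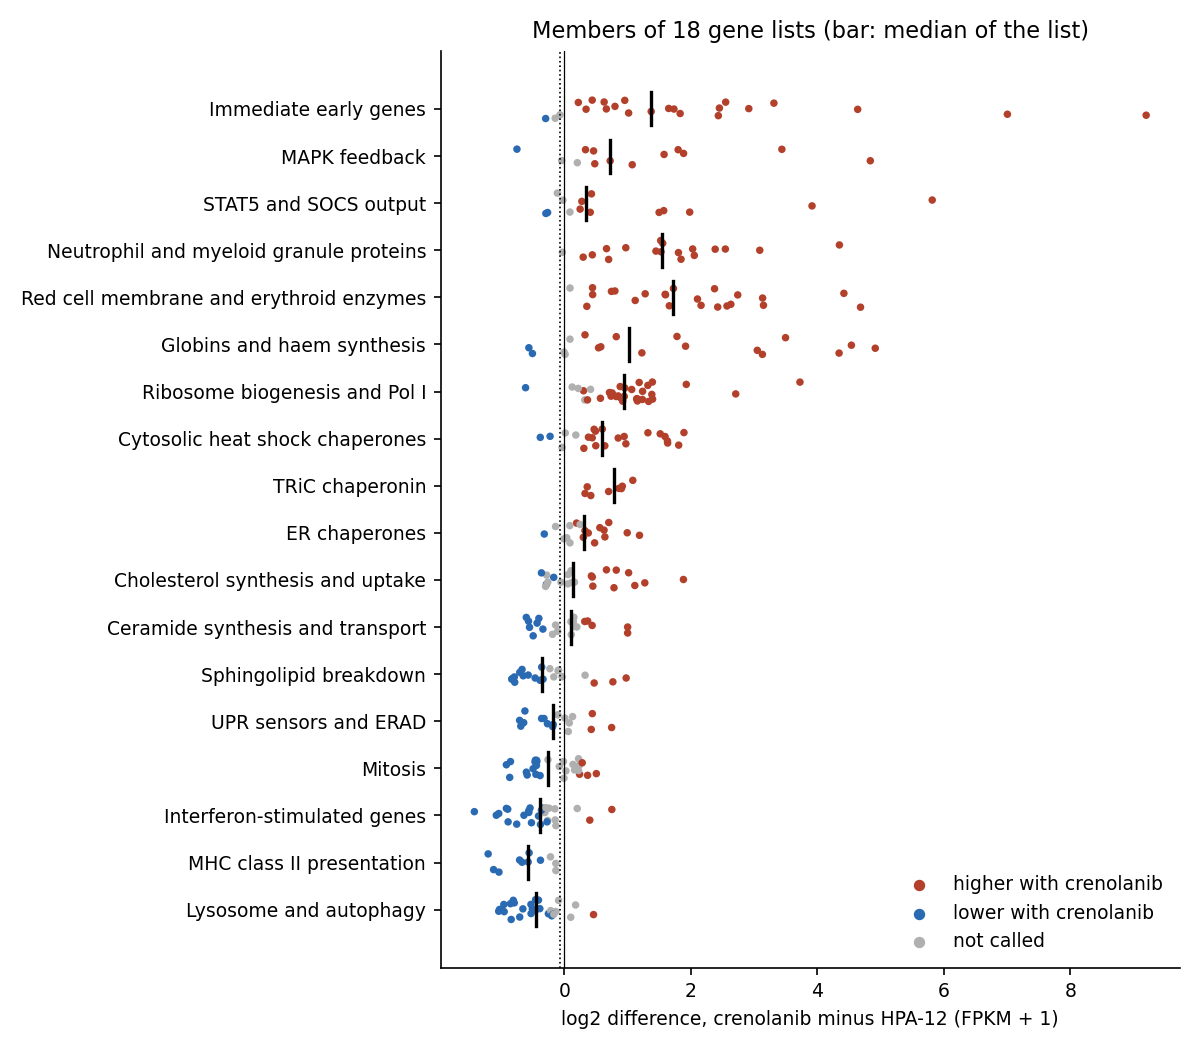
Log2 difference of every tested member of 18 gene lists, crenolanib minus HPA-12, coloured by call, with a bar at each list's median and a dotted line at the median of all genes, -0.07. Immediate early, granule and red cell genes spread far to the right, and most lysosomal, MHC class II and interferon genes lie left of 0.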

How the data were processed

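RNA-seq levels of MV-4-11 cells were taken from 1 table of FPKM values for 20036 genes and 12 libraries, deposited by the authors, with the unit named per the file headers. Neither aligner nor counter nor genome build is named in the labels or the header used here. The 3 crenolanib and 3 HPA-12 libraries were grouped by their labels, and the 3 DMSO libraries were used for levels only. Low FPKM values gave an estimated depth per library, but only 34.2% of crenolanib values and 38.7% of HPA-12 values came out as whole reads (within 0.01 of a read, genes of up to 20 reads), so no count test was run. Genes with at least 1 FPKM in 3 of the 6 libraries were tested on log2(FPKM + 1) with limma 3.58.1 (R 4.3.3, statmod 1.5.0; 2-group fit, trended and robust empirical Bayes, two-sided, Benjamini-Hochberg adjustment over 10636 genes, threshold 0.05). No pair of libraries held identical values. On simulated data of the same size the fit called 97 of 100 genes changed by 1 log2 unit, 70 of 100 changed by 0.5 and 10 of 10436 unchanged genes. With 3 libraries a group, a single gene's precision is limited by their number.

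The genes compared, the 54 gene lists and the rule for naming genes were chosen with earlier results of these data known. Genes named are the 12 most raised and 12 most lowered genes (adjusted p under 0.05, a mean of at least 5 FPKM, no overlap between groups), a fixed set of 13 genes of the study's subject, and up to 5 members of each list with the smallest p. A few genes that the rule takes are not reported here. GC content came from the longest transcript in GENCODE release 29 and promoters from the RefSeq table (GRCh38.p14), of which 8674 matched a gene tested. Alternatives changed the scaling, the pseudocount, the filter, the variance model and the libraries in the fit; removing the trend with GC content (loess, span 0.3) was added after seeing the data. Python 3.11.15 with pandas 2.3.3, numpy 2.4.6 and matplotlib 3.10.9 made tables and figures.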

Additional observations from a re-analysis of the deposited data

How the results depend on the processing

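Of 156 genes named with a test, 146 kept their direction and their side of the threshold under each of the 21 alternatives that tested them; a mean of at least 5 FPKM left 15 of the 156 untested. The exceptions are ATF4, ATF6, BCL6, CERT1, CISH, DDIT3, H4C4, SPRY2, STAT5A and XBP1. With the GC trend removed, with or without the replicate block, ATF4 turned to 0.16, ATF6 to -0.13 and STAT5A to 0.101. DDIT3, never called, was -0.033 with a pseudocount of 0.1 and ranged from -0.46 to 0.44 with 1 library left out, the lowest value without crenolanib library 2, against 0.03. With all 12 libraries in the fit, which share 1 estimate of the spread, the calls of ATF4, BCL6, CERT1, CISH, H4C4, SPRY2, STAT5A and XBP1 were lost. Those of ATF4, BCL6 and STAT5A were also lost under median-ratio scaling, those of BCL6 and STAT5A without HPA-12 library 1, that of BCL6 with the GC trend removed, and that of CERT1 with the GC trend removed and the replicate block. How far depth limits small differences was not tested, nor was the cause of the shifts below.

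With all 12 libraries in the fit, 4518 genes were called (2420 lower), against 6956 (3906 lower). A mean of at least 5 FPKM, which tests fewer genes, left 1778 higher, 491 genes over 1 log2 unit and 334 higher by that much, against 3050, 856 and 647. A pseudocount of 0.1, which enlarges differences of low genes, gave 1473 genes over 1 log2 unit (1007 higher, 466 lower) and 337 higher and 16 lower by over 2 log2 units, against 139 and 0; a pseudocount of 0.5 gave 316 lower by over 1 and 215 higher by over 2 log2 units. Genes lower by over 1 log2 unit numbered 128 under median-ratio scaling and 29 with the GC trend removed, with or without the replicate block, against 209. The median difference, -0.075 as deposited, was -0.0078 under median-ratio scaling, -0.0441 under upper-quartile scaling, 0.0117 with no filter, -0.154 for means of at least 5 FPKM and -0.0145 with the GC trend removed, with or without the block. With 1 library left out, calls ranged from 6088 to 6763 (2617 to 2952 higher, 3392 to 3822 lower), genes over 1 log2 unit from 799 to 920 (609 to 697 higher, 190 to 233 lower), genes beyond 2 log2 units from 134 to 142 higher and from 0 to 1 lower, and the median from -0.0891 to -0.0655.

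The values do not settle whether the replicate numbers pair the libraries. Same-numbered crenolanib and HPA-12 libraries deviated together at only 0.044, 0.032 and 0.015, although each correlated best with its own number. The fit with a replicate block called 6957 genes. Of 108 counts of list members higher or lower, 33 moved by over 1.5 times with all 12 libraries, 29 with the GC trend removed, 24 with means of at least 5 FPKM, 15 under median-ratio scaling and at most 10 under the others without a GC correction.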
